A study of Mus musculus with 2 samples.

Results

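The 46 genes described here are 18 genes of S phase, in which a cell copies its DNA, and 28 genes of mitosis, in which it divides. They were chosen by symbol, and each symbol matched exactly 1 of the 32285 gene rows of a droplet single-cell RNA count matrix. The cells came from lungs of zbtb46-cre x rosa26-yfp mice, in which Cre recombinase under the Zbtb46 gene, a transcription factor of classical dendritic cells, permanently switches on yellow fluorescent protein. By this design a sorted cell should express Zbtb46 or descend from one that did, which was not tested for the classes below. Live CD45.2 and YFP-positive cells of untreated mice were sorted at 7 days of age (neonatal) or at 8 weeks (adult), with 2 pools of at least 5 mice at each age. Each pool carried its own hashtag. Both pools of an age shared 1 loading channel, so age cannot be told apart from channel. All groups carry the same alleles, and no group without Cre is part of the comparison.

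Cells enter S phase when E2F transcription factors switch on genes that license replication origins, make DNA building blocks and run the replication fork. Genes of the division apparatus follow in G2 and mitosis under the MuvB complex with B-Myb and FoxM1, and the anaphase-promoting complex then destroys many of their products. Classical dendritic cells (DC) arise from dividing precursors and can divide further in tissues. Nonclassical monocytes and mature neutrophils are cells that have left the cycle. Some replication genes, among them Pcna and Slbp, are also transcribed outside S phase.

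The pools gave 20346024 and 19549992 unique molecular identifiers (UMIs, counts of captured transcripts) in neonatal mice and 8993471 and 8172362 in adults. After filtering, 4402, 4438, 2031 and 1854 cells remained, with a median of 3052 to 3714 UMIs per cell. No barcode was shared between pools of 1 age (0 in both ages), and 0 to 9 were shared by each pair of pools of different age. The label calls the cells dendritic, but clusters with monocyte, neutrophil and lymphocyte markers held a large part of them. The class called cDC1 had summed levels of 4508 to 6590 CPM (UMIs of a gene scaled to the total UMIs of its class and pool) over its 10 defining markers. The class called cDC2 had 3429 to 4297 CPM over its own 10 markers, and mature DC had 10884 to 14141 CPM over 11. Clusters were built without cell cycle genes, so dividing cells stayed within their classes.

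Within several classes, different clusters held most cells at each age. In cDC1, a cluster led by Xcr1, Itgae and Naaa held 826 and 757 neonatal and 69 and 57 adult cells, and a cluster led by Cldn1, Epcam and Ckb held 46 and 41 neonatal and 251 and 181 adult cells. In mature DC, a cluster led by Fscn1, Il12b and Bcl2l14 held 423 and 396 neonatal and 8 and 7 adult cells, against 102, 126, 123 and 107 in one led by Ccl22, Aldh1a2 and Apol7c. Nonclassical monocytes of neonates lay mostly in a cluster led by Slc12a2 and Treml4 (993 and 1068 cells, against 5 and 8 in adults) and those of adults in one led by Fabp4 and Cd300e (13 and 22 neonatal cells, 269 and 286 adult cells). Whether these states moved the members was not tested.

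The promoters of both lists were searched for the motifs through which each wave of transcription is known to be driven. RefSeq promoters of build GRCm38.p6 (250 bases before to 50 after the start) were matched for 15 of the 18 S phase and 24 of the 28 mitosis members. An E2F motif (TTTCCCGC, TTTGGCGC, TTTCGCGC or TTTGCCGC, on either strand) stood in 7 of 15 S phase promoters (46.7%), 3 of 24 mitosis promoters (12.5%) and 2.61% of the promoters of 27025 genes. A CHR motif (TTTGAA or TTCGAA, either strand), the element bound by MuvB, stood in 3 of 15 S phase (20%), 19 of 24 mitosis (79.2%) and 21.7% of all genes. The CCAAT box (CCAAT, either strand) was present in 12 of 15 and 20 of 24, against 41.1%. The lists thus differed in which of 2 motifs their promoters hold, and shared the CCAAT box. No test was made of these shares, and a match is a description of letters, not a site of binding.

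The stretches below are 30 bases each, read 5′ to 3′ on the strand of the gene, with the E2F match nearest to the RefSeq start in capitals. They belong to the 4 members with an E2F match that had the smallest p in cDC1. Rrm2, whose p was smaller than that of Cdc6 and Mcm3, had no E2F match. Nor had Pcna, Mcm2, Tyms, Rrm1, Dut, Cdc45 and Slbp, all called higher in neonatal cDC1, while Mcm6 and Pclaf had one and were not called. Whether the motif bears on the age difference was not tested. The match in Mcm5 starts 149 bases before the RefSeq start, that in Uhrf1 185 before, that in Cdc6 138 before and that in Mcm3 19 after it. The promoters of Mcm5 and Mcm3 hold 2 matches each, and in Mcm5 the other one, TTTCGCGC, overlaps the capitals within the stretch.
Mcm5, chr8:75109349-75109378, plus strand: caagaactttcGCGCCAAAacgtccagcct
Uhrf1, chr17:56304117-56304146, plus strand: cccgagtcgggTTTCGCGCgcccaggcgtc
Cdc6, chr11:98908002-98908031, plus strand: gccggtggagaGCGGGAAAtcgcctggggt
Mcm3, chr1:20820275-20820304, minus strand: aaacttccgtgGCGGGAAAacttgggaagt

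For mitosis, the 4 members of smallest p in cDC1 each had a CHR match, and the one nearest to the start is in capitals below. Mki67 and Ccnb2 hold 2 each. The match starts 98 bases before the start in Mki67 and 29 before in Ube2c, and 4 bases after it in Ccnb2 and 16 after in Cenpa. Birc5, Ccnb1, Cenpe, Nusap1 and Tacc3 had no CHR match and were also called higher in neonatal cDC1, while Prc1 had a match and was not called.
Mki67, chr7:135716460-135716489, minus strand: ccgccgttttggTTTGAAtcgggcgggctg
Ube2c, chr2:164769888-164769917, plus strand: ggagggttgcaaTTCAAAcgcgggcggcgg
Ccnb2, chr9:70421533-70421562, minus strand: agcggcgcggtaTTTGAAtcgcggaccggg
Cenpa, chr5:30666890-30666919, plus strand: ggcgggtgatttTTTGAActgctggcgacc

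The first comparison asked which members differ between ages in each class of cells. In cDC1, the subset that presents antigen to CD8 T cells, members of both lists were higher in neonates. Of the 18 S phase members, 15 rose and 0 fell (edgeR quasi-likelihood test on summed UMIs per pool, Benjamini-Hochberg adjusted p under 0.05 over all genes), with a median log2 difference of 0.75. Of the 28 mitosis members, 26 rose and 0 fell, with a median of 1.57. Of the 10092 genes tested in this class, 12% were called higher in neonates and 15.3% lower, and their median difference was -0.0027. The summed level over the 18 S phase members was 795 and 832 CPM in neonatal pools and 393 and 526 CPM in adult pools. Over the 28 mitosis members it was 1326 and 1144 CPM against 360 and 580 CPM. Markers of cDC2 summed to 90.9 and 88.6 CPM in neonatal and 423 and 441 CPM in adult pools of this class, and markers of classical monocytes to 348 and 348 CPM against 759 and 722 CPM. Their part in the results was not tested. A summed level does not tell more cells with a transcript from more transcripts per cell.

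**Figure D1:**
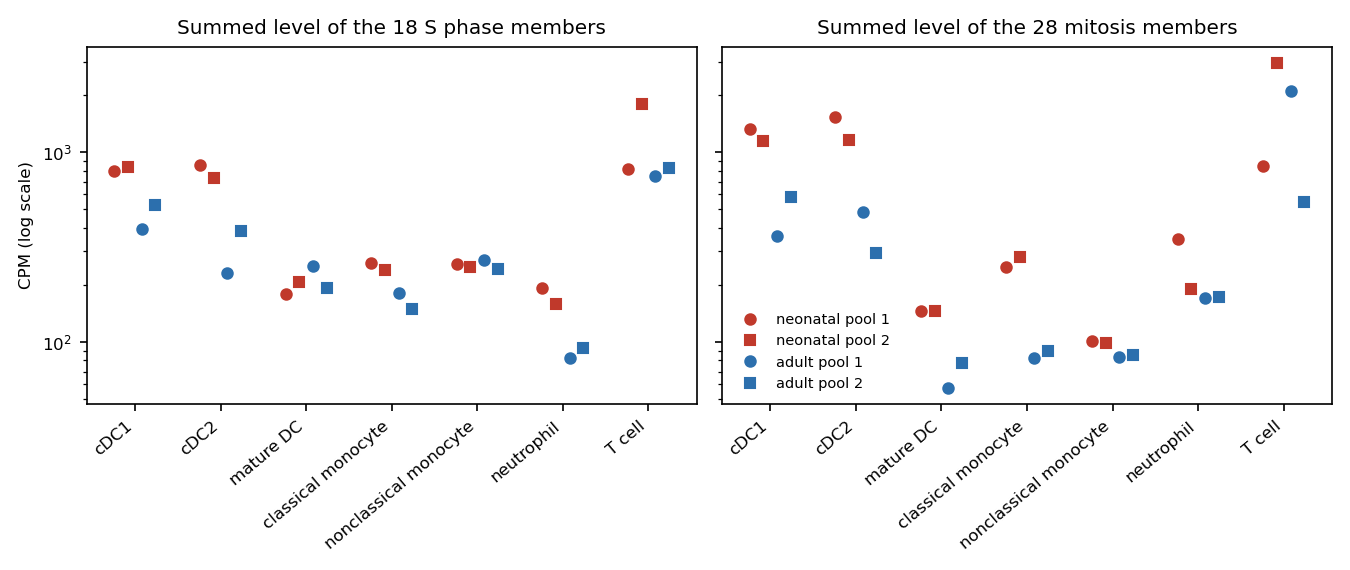
Summed level of the 18 S phase members (left) and of the 28 mitosis members (right) per class and pool, in CPM on a log axis; red marks neonatal and blue adult pools, circles pool 1 and squares pool 2. In cDC1 and cDC2 both neonatal pools lie above both adult pools on each side, and nonclassical monocytes lie close together. The T cell class, which also held natural killer cells, spreads widely within an age.

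Among S phase members in cDC1, Mcm5, a subunit of the MCM helicase that unwinds DNA at origins, had 37.4 and 35.5 CPM in neonatal and 14.98 and 15.7 CPM in adult pools (log2 difference 1.18, SE 0.17, adjusted p 1.05e-05). Uhrf1, which carries DNA methylation over to new strands, had 29.5 and 29.1 CPM against 12.6 and 9.75. Rrm2, the subunit of ribonucleotide reductase that cycles with S phase, had 31.97 and 26.6 CPM against 6.88 and 14.6. In all of them both neonatal pools were above both adult pools. Cdc6, which loads the helicase onto origins, showed the largest log2 difference of the list (2.31, SE 0.43). It had 8.28 and 11.4 CPM in neonatal and 2.43 and 1.08 CPM in adult pools, the latter from 6 and 2 UMIs. Mcm3 and Tipin, a fork protection factor, each rose by less than 1 on the log2 scale (0.78 and 0.77). Pcna, the sliding clamp of DNA polymerase, was the member with most UMIs, at 121 and 130 CPM against 83.4 and 97.99, and rose by 0.41 (SE 0.09, adjusted p 0.00124). The 3 members not called were Mcm6 (log2 difference 0.23), Gins2 (0.26) and Pclaf (1.38, adjusted p 0.0657), a PCNA-binding factor.

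Among mitosis members, Mki67, the antigen Ki-67 that coats mitotic chromosomes, had 164 and 144 CPM in neonatal and 42.1 and 61.2 CPM in adult cDC1 (log2 difference 1.53, SE 0.12, adjusted p 1.06e-09). Ube2c, the ubiquitin-conjugating enzyme of the anaphase-promoting complex, had 73.2 and 56.2 CPM against 13.4 and 19.5 (1.94, SE 0.18). Ccnb2, a cyclin of the mitotic kinase, had 44.1 and 36.1 CPM against 8.91 and 9.20 (2.07, SE 0.20). The kinase itself, Cdk1, rose by 1.57, and the centromere genes Cenpa and Cenpf by 1.44 and 1.59. Ccnb1 had the largest difference of the list (2.49, SE 0.35), followed by Plk1 (2.26), a kinase of mitotic entry, and Hmmr (2.12), a spindle factor. These rest on few adult UMIs, 4 and 6 for Ccnb1, 5 and 2 for Plk1 and 8 and 11 for Hmmr. Plk1, like Cdc6 among the S phase members, entered the test through the neonatal pools alone and could only be called higher. The smallest among those called was 0.77, for Aurkb, the kinase of the chromosomal passenger complex. Prc1 (1.09, adjusted p 0.124) was not called. Neither was Stmn1, a tubulin-binding protein and the member with most UMIs of its list. It had 238 and 229 CPM in neonatal and 79.8 and 145 CPM in adult pools (1.03, SE 0.32, adjusted p 0.169), and passed the threshold when either adult pool was left out, with log2 differences of 0.63 without adult pool 1 and 1.47 without adult pool 2.

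In all 46 of 46 members both neonatal pools of cDC1 were above both adult pools, against 37.9% of all genes tested. The number of S phase members called fell to 8 of 18 without adult pool 1, to 7 with DESeq2, and to 2 of the 13 tested when each cell was thinned to 1000 UMIs before summing, which also left 10 of the 16 mitosis members tested. Pcna lost its call without adult pool 1 (log2 difference 0.30, adjusted p 0.0525).

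In cDC2, the subset that mainly primes CD4 T cells, 14 of 17 tested S phase members and 23 of 27 tested mitosis members rose and 0 fell in either list, where 7.33% of 8446 genes were called higher in neonates and 9.64% lower. Median log2 differences were 1.25 and 1.52. Cdc45 and Aurka were too low to test. Few adult UMIs were found for Uhrf1, Rrm2, Cdc6, Ccna2, Ccnb1, Nusap1, Kif15, Aurkb, Bub1, Tacc3 and Ckap2l. These called members entered the test through the neonatal pools alone and could only be called higher. That 0 fell is therefore in part fixed by the filter. The summed level was 854 and 733 CPM against 230 and 384 CPM for S phase members, and 1527 and 1155 CPM against 484 and 295 CPM for mitosis members. Of the 44 members tested, 43 had both neonatal pools above both adult pools, against 40.9% of all genes tested.

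Uhrf1 had 35.1 and 40.9 CPM in neonatal and 5.25 and 6.68 CPM in adult cDC2 (log2 difference 2.49, SE 0.36, adjusted p 6.49e-09). Rrm2 had 22.2 and 18.4 CPM, against no UMI in adult pool 1 and 4.45 CPM in adult pool 2. Dut, which clears dUTP from the nucleotide pool, had 73.9 and 58.7 CPM against 19.9 and 31.2, and Rrm1, the other reductase subunit, had 41.8 and 36.3 CPM against 11.5 and 12.2. Mcm7 rose by 1.69 and Pcna by 0.77. Neonatal pools were higher in each of these. The members not called were Tyms, which makes thymidylate, Pclaf and Gins2, with log2 differences of 0.86, 2.60 and 0.58.

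Mki67 had 188 and 139 CPM in neonatal and 40.9 and 23.4 CPM in adult cDC2 (log2 difference 2.20, SE 0.19). Top2a, the topoisomerase that untangles sister chromatids, had 116 and 86.9 CPM against 25.2 and 15.6 (2.17, SE 0.21). Stmn1 rose by 2.08 (adjusted p 0.0193), from 30.4 and 66.8 CPM in adults to 250 and 201 CPM. Smc2, a condensin subunit that compacts chromosomes, rose by 2.06. The kinesin motor Kif15 rose by 2.41, the spindle protein Nusap1 by 2.66 and Kif23, a motor of cytokinesis, by 1.64. Ube2c (1.10), Ccnb2 (1.49), Cdc20 (0.36) and Plk1 (1.23) did not pass the test. Calls fell to 9 of 18 S phase members without adult pool 1, to 13 of 23 mitosis members without neonatal pool 1, to 6 and 8 with DESeq2, and to 1 of 3 and 4 of 7 tested members with thinned cells. Markers of C1q macrophages summed to 564 and 1202 CPM in neonatal and 428 and 1950 CPM in adult pools of this class. At a finer clustering that held 341, 203, 92 and 76 cDC2, 13 S phase and 16 mitosis members were called, and Stmn1 lost its call (adjusted p 0.190).

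**Figure D2:**
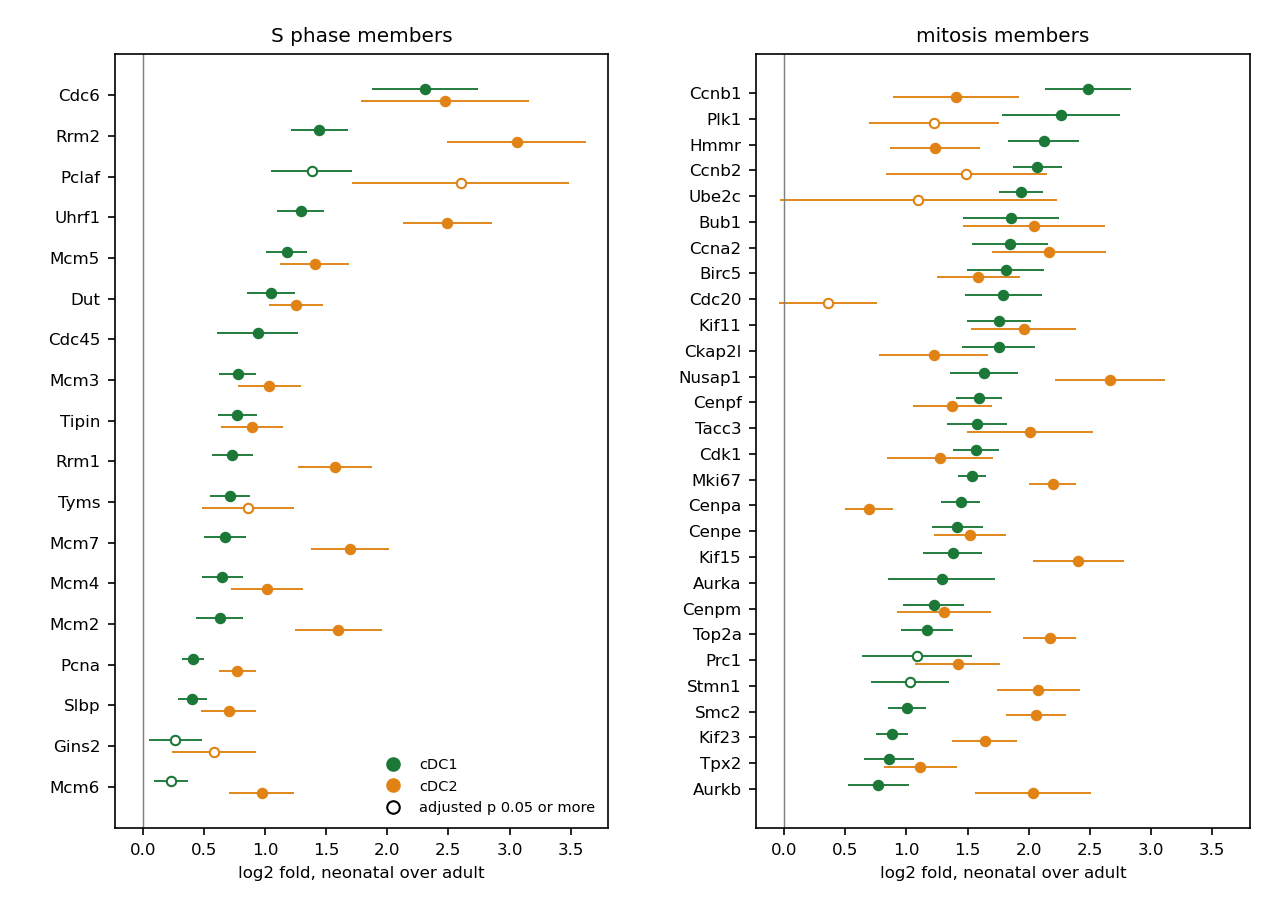
Log2 difference between ages for each S phase member (left) and mitosis member (right) in cDC1 (green) and cDC2 (orange), neonatal over adult; bars are standard errors, and open circles did not pass an adjusted p of 0.05. Every point lies above 0, from 0.23 for Mcm6 in cDC1 to 3.06 for Rrm2 in cDC2.

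A model of both subsets with an interaction term, in which each pool was a block, asked whether a member's age difference was larger in 1 subset than in the other. It called 3 of the 46 members, a share close to the 6.39% of 9858 genes called in either direction. Smc2 and Stmn1 differed more with age in cDC2 (cDC1 minus cDC2 of -1.06, SE 0.30, and -1.09, SE 0.17), and Cenpa more in cDC1 (0.77, SE 0.24). None of the 18 S phase members was called by edgeR (0, with 8 at an unadjusted p under 0.05, all of them lower in cDC1 minus cDC2). Smc2 lost its call without neonatal pool 1 or either adult pool, and Cenpa without either neonatal pool or adult pool 1, with values between 0.37 and 0.84 for Cenpa and between -1.17 and -0.82 for Smc2. Without neonatal pool 2, 2 S phase members were called. The number of mitosis members called was 1 without neonatal pool 1 and 6 without either adult pool.

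Mature DC, which have taken up the migratory program marked by Ccr7, had S phase members called in both directions. Of 12 tested S phase members 1 rose and 3 fell, where 16.6% of 7845 genes were called higher and 17.7% lower in neonates. These counts are small and lie near the shares over all genes. Pcna fell by 0.98 on the log2 scale (SE 0.20, adjusted p 0.000581), with 33.0 and 40.7 CPM in neonatal and 61.1 and 77.8 CPM in adult pools. Mcm7 had 3.61 and 4.37 CPM against 15.6 and 10.5, and Tipin 3.61 and 3.06 CPM against 11.98 and 9.23. Both entered the test through the adult pools alone and could only be called lower. Uhrf1 rose by 1.57, from 9.58 and 10.5 CPM to 37.9 and 25.4 CPM, and was the only S phase member called higher. Of 6 tested mitosis members, Mki67 (28.4 and 30.6 CPM against 1.20 and 6.59) and Stmn1 (21.7 and 17.5 CPM against 7.19 and 5.27) rose, and 0 fell. Mcm7 and Tipin lost their calls without either neonatal pool, without adult pool 1 and with DESeq2, and Stmn1 lost its call without neonatal pool 1 and with DESeq2. Pcna, Uhrf1 and Mki67 kept theirs in each of those fits. Without adult pool 2, 4 mitosis members were called. Markers of C1q macrophages summed to 1341 and 1310 CPM in neonatal and 931 and 1106 CPM in adult pools of this class, and markers of cDC1 to 1325 and 1093 CPM against 386 and 345 CPM. Their part in the values was not tested.

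The age difference itself differed between cDC1 and mature DC for 6 of the 46 members, a smaller share than the 21.1% of 9978 genes called in either direction. All 6 were larger in cDC1: Pcna by 1.30 (SE 0.22), Tyms by 1.58, Mcm7 by 2.37, Tipin by 2.43, Cenpa by 1.92 and Kif23 by 2.34. Kif23, too low to test in mature DC alone, had 0.37 and no call without adult pool 2, and lost its call without neonatal pool 1 as well. Tyms had 0.68 and no call without adult pool 1, and was not called without neonatal pool 1. Cenpa lost its call without adult pool 2 and Mcm7 without adult pool 1. The S phase count of 4 went to 2 without adult pool 1 and 7 without adult pool 2, and the mitosis count of 2 went to 0 without adult pool 2. For Pcna and Tipin the call held when any 1 pool was left out.

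In classical monocytes, the Ly6C-high cells that leave the marrow, members of both lists were called higher in neonates. Of 9 tested S phase members 2 rose and 0 fell, and of 10 tested mitosis members 6 rose and 0 fell, where 5.68% of 7955 genes were called higher. Stmn1, Ccnb2, Birc5, Cenpe, Ube2c, Mki67, Pclaf and Mcm6 had few or no adult UMIs and entered the test through the neonatal pools alone. Such members could only be called higher, so these counts do not weigh 1 list or direction against the other. Neutrophil markers summed to 1337 and 1584 CPM in neonatal and 231 and 223 CPM in adult pools of this class, and alveolar macrophage markers to 18.3 and 33.5 CPM against 540 and 559 CPM. Their part in the values was not tested. Stmn1 had 57 and 42 UMIs in neonatal and 1 and 1 in adult pools, a ratio of 37.6 in level (95% counting interval 10.1 to 315). Ccnb2 had 47 and 27 UMIs against 0 and 1 (ratio 56.2, 9.77 to 2248), and Birc5, the passenger protein survivin, had 20 and 27 against 0 and 2 (17.8, 4.67 to 152). Cenpe, a kinetochore motor, had 13 and 16 UMIs against 1 and 0 (22.01, 3.65 to 899). Ube2c rose by 3.12 (SE 0.40), with 34.2 and 33.5 CPM against 1.66 and 5.12, and Mki67 by 1.62 (15.3 and 23.5 CPM against 5.82 and 5.12). These 6 are all present in neonates at a level under that of neonatal cDC1. Pclaf had 20 and 21 UMIs in neonates and none in adults, which makes it at least 10.4-fold higher against a floor of 3 counts over the adult pools. Mcm6 had 16 and 16 UMIs against 1 and 1 (ratio 12.1, 3.10 to 105). Pcna had 88.0 and 77.8 CPM against 65.7 and 64.0 and did not pass (adjusted p 0.492), and Cenpa had 26.3 and 34.9 CPM against 36.6 and 31.6. Mcm6 lost its call without either neonatal pool and with DESeq2, Mki67 without neonatal pool 2 and with DESeq2, and Cenpe with DESeq2. Without neonatal pool 1 only 1 S phase member was called.

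Nonclassical monocytes, the patrolling cells, held more cells than any other class, and few of their members passed the test. No S phase member of 11 tested was called (0 higher and 0 lower by edgeR, 3 at an unadjusted p under 0.05, and 0 higher by DESeq2), and 1 of 7 mitosis members was, where 9.17% of 9075 genes were called higher. The 1 was Mki67, with 31 and 30 UMIs in neonatal and 0 and 2 in adult pools (ratio 6.49, 1.72 to 54.8). Mki67 entered the test through the neonatal pools alone and could only be called higher. It was not called without adult pool 1 (log2 difference 1.60, adjusted p 0.264) or with DESeq2 and was not tested without either neonatal pool. Pcna stood at 105 and 95.4 CPM against 89.8 and 87.9, and Kif23 at 18.6 and 16.1 CPM against 14.4 and 26.8. The age difference was larger in classical than in nonclassical monocytes for Stmn1 (4.89, SE 0.90) and Mcm6 (3.36, SE 0.97), which are 2 of 22 members tested, against 8.43% of 8538 genes called in either direction. Stmn1 held without any 1 pool, while Mcm6 lost its call without neonatal pool 2 or either adult pool.

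**Figure D3:**
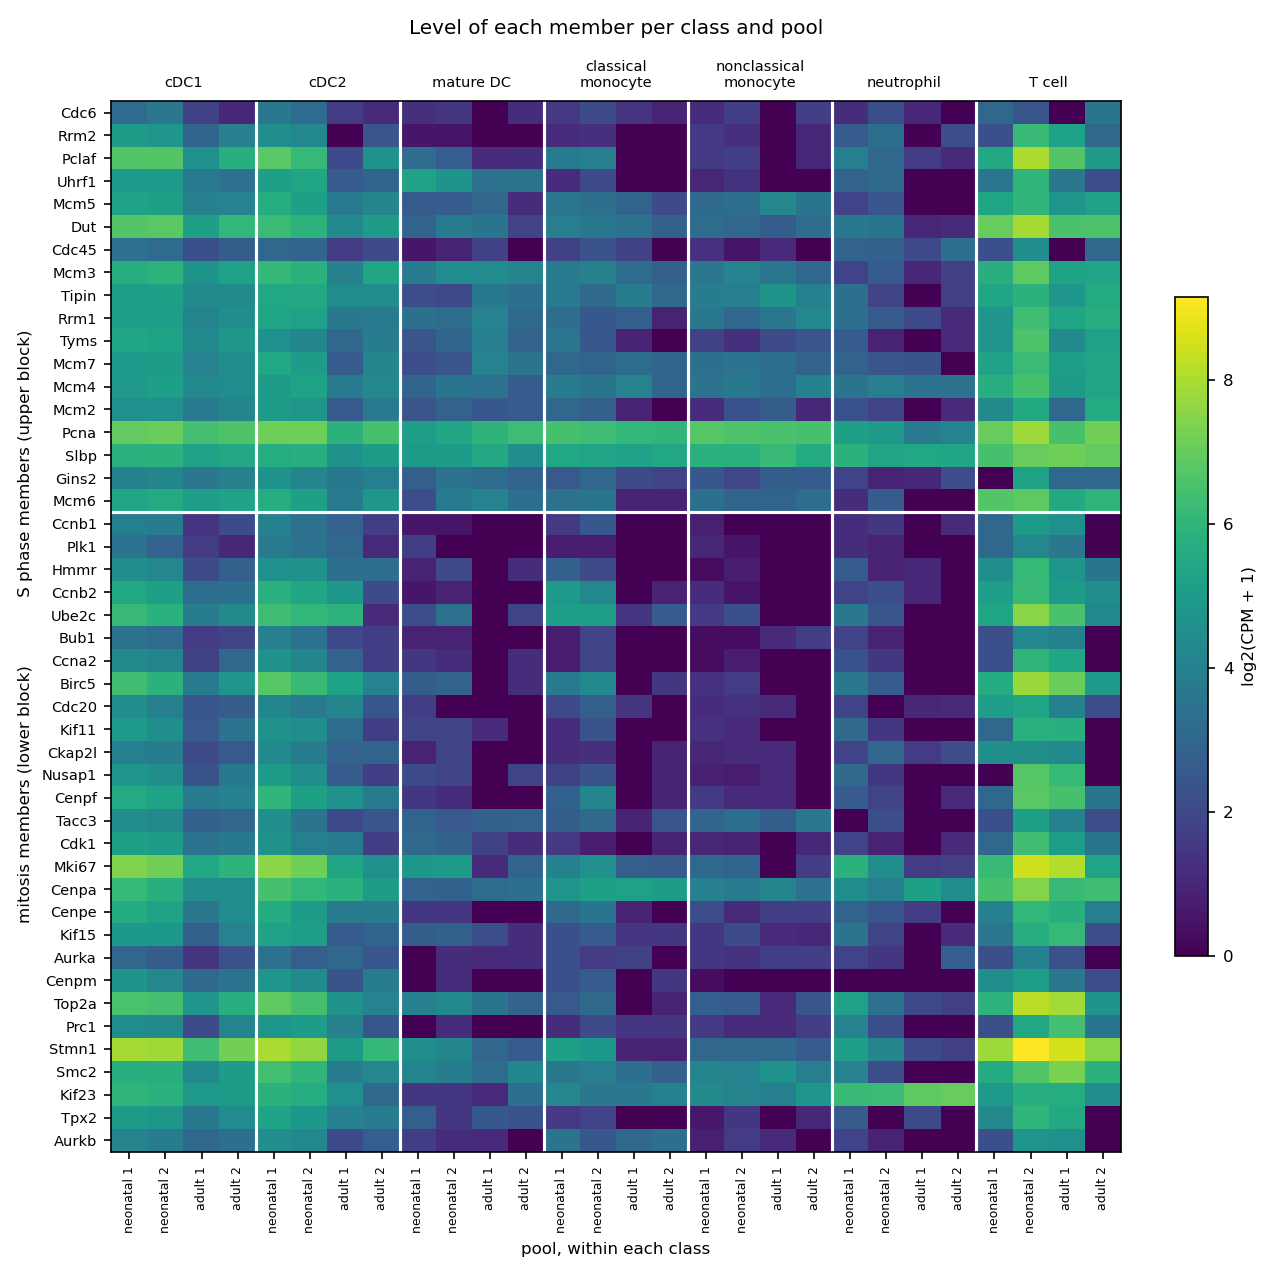
Level of each member in each pool of 7 classes as log2(CPM + 1), with S phase members in the upper block and mitosis members in the lower block, each ordered by the age difference in cDC1. Pcna and Slbp are bright in nearly all columns, Kif23 is bright in neutrophils, and most of the mitosis block is dark in nonclassical monocytes.

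In neutrophils, 2 S phase and 4 mitosis members were high enough to test, with 16.3% of 5771 genes called higher and 15.9% lower. Mki67 rose (57.7 and 21.2 CPM against 2.02 and 2.29) and so did Stmn1 (34.1 and 16.8 CPM against 3.03 and 2.29). Both had few adult UMIs, entered the test through the neonatal pools alone and could only be called higher. Pcna rose by 1.17 (35.4 and 29.2 CPM against 13.1 and 16.03), though not without adult pool 1 or with DESeq2, while Slbp (57.7 and 39.8 CPM against 43.5 and 40.1) did not pass. Kif23 fell by 0.72 (SE 0.18, adjusted p 0.000991), from 117 and 129 CPM in adults to 70.8 and 73.5 CPM, while it rose in cDC1 and cDC2. That difference between classes was not tested. Kif23 made up 71.8% of all mitosis UMIs of adult neutrophils. Without adult pool 2, 2 mitosis members were called lower. A cluster led by Camp, Ngp and Ltf, genes of granules made early in neutrophil maturation, held 88 and 132 neonatal and 0 and 0 adult neutrophils, and its part in these values was not tested.

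The class called T cells, 82 and 116 neonatal and 63 and 68 adult cells, had the highest summed levels of the tested classes in its neonatal pool 2, with 1789 CPM of S phase and 2941 CPM of mitosis members. Levels differed within an age, at 816 and 845 CPM in neonatal pool 1, and at 746 and 827 CPM of S phase and 2110 and 548 CPM of mitosis members in adult pools. No member was called of 13 S phase and 16 mitosis members tested (0 by edgeR and 0 by DESeq2, with 4 and 1 at an unadjusted p under 0.05), where 0.382% of 3922 genes were called higher. Stmn1, at 222 and 565 CPM against 369 and 181 CPM, and Pcna, at 130 and 224 CPM against 87.6 and 145 CPM, overlapped between ages. Without neonatal pool 1, 5 S phase and 7 mitosis members were called, and without adult pool 1, 0 and 1.

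The T cell class mixes T cells with natural killer (NK) cells. NK markers summed to 4479 to 8645 CPM in it, and its 9 T cell markers to 3334 to 4637 CPM, lower in every pool. A finer clustering placed 102 of its neonatal and 43 of its adult cells with NK cells, and 93 and 88 with T cells. NK cells at that resolution (47, 68, 270 and 286 cells) could be tested, an alternative chosen after the data were seen. Of 14 S phase members 8 rose and of 20 mitosis members 5 rose, with 0 lower in both, where 4.85% of 6080 genes were called higher. Tyms, Uhrf1, Ccnb2, Cdc20, Cenpm and Ckap2l were low in adults, entered the test through the neonatal pools alone and could only be called higher. Several uncalled mitosis members overlapped between ages, among them Mki67 (131 and 377 CPM in neonatal and 140 and 7.24 CPM in adult pools) and Top2a (30.8 and 215 against 121 and 18.1). Stmn1 (293 and 592 CPM against 205 and 86.9) did not overlap and was not called either. Dut had 131 and 285 CPM in neonatal and 48.4 and 54.3 CPM in adult NK cells (log2 difference 2.12, SE 0.28), and Mcm6 had 170 and 158 CPM against 44.6 and 55.5 (1.68, SE 0.26). Cdc20, the activator of the anaphase-promoting complex, had 5 and 10 UMIs against 6 and 0. In the T cells that remained, Dut, Stmn1, Top2a and Cenpa were called, which are 1 of 5 S phase and 3 of 3 mitosis members tested, where 0.745% of 2551 genes were called higher. Top2a had 14 and 86 UMIs in neonatal and 1 and 0 in adult pools there, so it entered the test through the neonatal pools alone. Cenpa, with 15 and 52 UMIs against 7 and 10, did so too. Most mitosis members, Mki67 among them (6 and 86 UMIs against 1 and 7), were not tested, so 3 of 3 is not a share of the list. Stmn1 there had 242 and 548 CPM in neonatal and 29.9 and 78.0 CPM in adult pools. In basophils (84, 113, 35 and 25 cells) only Slbp was high enough to test, at 52.6 and 67.3 CPM against 54.5 and 66.2. It was not called (0 by edgeR, 0 at an unadjusted p under 0.05 and 0 by DESeq2, where 3.29% of 2582 genes were called higher).

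The second comparison took cells rather than sums, at 1 depth. Each cell was thinned to 1000 UMIs, the minimum kept, so that no cell was lost, and counted when it held at least 2 members of a list. In cDC1, 120 of 872 and 108 of 798 neonatal cells had 2 or more S phase members, and 22 of 320 and 19 of 238 adult cells, which gives 13.6% ± 0.2 (SD, n = 2) against 7.43% ± 0.78 (SD, n = 2). For mitosis members the counts were 143 and 112 against 14 and 13, or 15.2% ± 1.7 (SD, n = 2) against 4.92% ± 0.77 (SD, n = 2). The neonatal pools were above the adult pools in both, and the exact permutation test (two-sided) gave p = 0.333, below which 4 pools cannot go.

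In cDC2 the share was 15.4% ± 1.5 against 2.85% ± 2.0 for S phase and 16.1% ± 4.1 against 3.28% ± 2.6 for mitosis members (SD, n = 2 each, exact permutation p 0.333 in both). The adult values rest on 2 and 5 cells of 136 and 118 for S phase, and on 2 and 6 cells for mitosis. Without thinning the shares were 48.7% against 38.9% and 38.0% against 22.3% in cDC1, and 50.8% against 34.8% and 37.2% against 12.8% in cDC2. Adult cells were the deeper ones, with medians of 7826 and 8016 UMIs in cDC1 against 6774 and 6972, and 7318 and 7920 in cDC2 against 6738 and 6458.

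**Figure D4:**
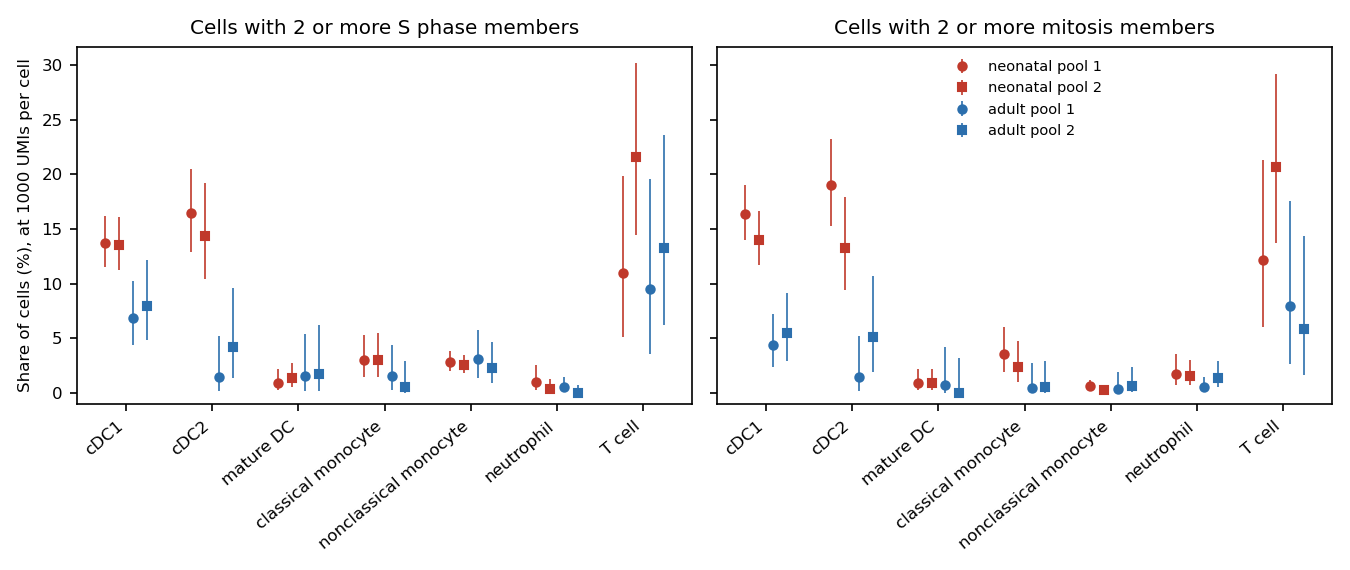
Share of cells with at least 2 S phase members (left) or at least 2 mitosis members (right) per class and pool, in percent, after thinning every cell to 1000 UMIs; bars are exact 95% binomial intervals and cover counting error only. Neonatal cDC1 and cDC2 lie between 13.3% and 18.99%, adult cDC1 and cDC2 between 1.47% and 7.98%, and mature DC, monocytes and neutrophils under 4%.

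Neutrophils are given here for comparison. Their share is not a measure of stray transcripts, since Kif23 made up most of their adult mitosis UMIs and the neonatal ones include the Camp, Ngp and Ltf cluster. Their median depth before thinning was 1508 to 1708 UMIs. They had 0.68% and 0.26% of cells with 2 or more S phase members in neonates and adults, and 1.68% and 0.96% for mitosis members. Mature DC had 1.15% against 1.64% for S phase members and 0.96% against 0.38% for mitosis members. Classical monocytes had 3.02% ± 0.02 against 1.02% ± 0.70 for S phase and 2.99% ± 0.80 against 0.52% ± 0.02 for mitosis members (SD, n = 2 each, exact permutation p 0.333 in both). In adults, 3 and 1 cells of 198 and 189 carried 2 S phase members, and 1 and 1 carried 2 mitosis members.

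Nonclassical monocytes had 2.69% ± 0.19 against 2.68% ± 0.55 for S phase members and 0.46% ± 0.20 against 0.50% ± 0.22 for mitosis members (SD, n = 2 each, exact permutation p 1 and 0.667). The S phase counts of this class came mainly from a pair of genes. Pcna and Slbp, the histone mRNA-binding protein, made up 61.5% of its S phase UMIs in neonates and 57.8% in adults, against 22.4% and 28.95% in cDC1. With both left out of the list, a choice made after seeing the values, the share was 0.59% against 0.84% in nonclassical monocytes, while cDC1 kept 10.9% against 5.495% and cDC2 12.1% against 2.43%. Adult NK cells went from 8.20% to 3.50%. For mitosis members, leaving out Kif23 and Cenpa changed neutrophils to 0.64% against 0.19%, mature DC to 0.96% against 0%, classical monocytes to 2.43% against 0% and cDC1 to 14.1% against 4.76%.

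The T cell class, which mixes T and NK cells, had 16.3% ± 7.5 against 11.4% ± 2.6 for S phase members, with overlap between ages. For mitosis members it had 16.4% ± 6.0 against 6.91% ± 1.5, without overlap (SD, n = 2 each, exact permutation p 0.667 for S phase and 0.333 for mitosis members). Adult NK cells had 21 of 247 and 21 of 266 cells with 2 or more S phase members, but 3 and 3 with 2 or more mitosis members. A neonatal cluster led by Rag1, Arpp21 and Dntt, genes of developing lymphocytes, had 17 of 27 and 7 of 13 cells with 2 or more S phase members and 23 and 6 with 2 or more mitosis members, and it had no adult cell (0 and 0). Its mean shares, 58.4% and 65.7%, were higher than those of every other class. Neonatal innate lymphoid cells had 14 of 51 and 3 of 44 cells for S phase and 9 and 3 for mitosis, so that the pools stood far apart. Neonatal alveolar macrophages had 4 of 71 and 2 of 59 for S phase and 4 and 7 for mitosis. The NK cells, the Rag1 cluster, the innate lymphoid cells and the macrophages had fewer than 20 cells in at least 1 pool and were not compared between ages.

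S phase and mitosis members were then read against each other within cells. Of 1670 neonatal cDC1, 228 had 2 or more S phase members, 255 had 2 or more mitosis members, and 105 had both. In adults these were 41, 27 and 15 of 558. In neonatal cDC2 they were 103, 110 and 45 of 659, and in adult cDC2 7, 8 and 2 of 254. So in neonates more than 2 in 5 cells with S phase members also carried mitosis members (46.1% in cDC1 and 43.7% in cDC2).

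Members of the same list divided unevenly between these cells. In neonatal cDC1, cells with 2 or more mitosis members held 18.2% of all UMIs. They held 86.3% of the UMIs of Rrm2 and 84.1% of those of Pclaf, then 64.9% of Tyms and 63.1% of Rrm1. At the other end they held 32.3% of Mcm2, 33.3% of Mcm3, 33.9% of Mcm6 and 35.5% of Mcm4. Mcm5 (43.1%), Dut (43.3%) and Mcm7 (53.7%) lay in between. In CPM, Pclaf stood at 469 in cells with 2 or more mitosis members and 19.9 in the rest, and Mcm3 at 100.3 and 44.8.

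Read the other way, cells with 2 or more S phase members held 16.99% of all UMIs. They held 67.7% of the UMIs of Kif11, a motor that separates spindle poles, 63.9% of Top2a and 62.3% of Nusap1. They held 14.9% of Cdc20, 16.03% of Ccnb2, 19.4% of Cenpa and 22.4% of Ccnb1. Cdc20 and Ccnb2 were thus no more frequent in cells with S phase members than all UMIs together. These 4 genes belong, as background, to the last part of the cycle, while Top2a and Cdk1 (58.2%) are already transcribed before mitosis. The Spearman rank correlation between neonatal cDC1 and cDC2 was 0.91 over the 18 S phase members and 0.86 over the 28 mitosis members. Between adult cDC1 and cDC2 it was 0.66 and 0.39, with a median share of 59.0% against 12.9% for mitosis members, and the adult cDC2 values rest on 8 cells with 2 or more mitosis and 7 with 2 or more S phase members. The correlation is a description across genes, which are not independent and share the same libraries, and it carries no p.

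**Figure D5:**
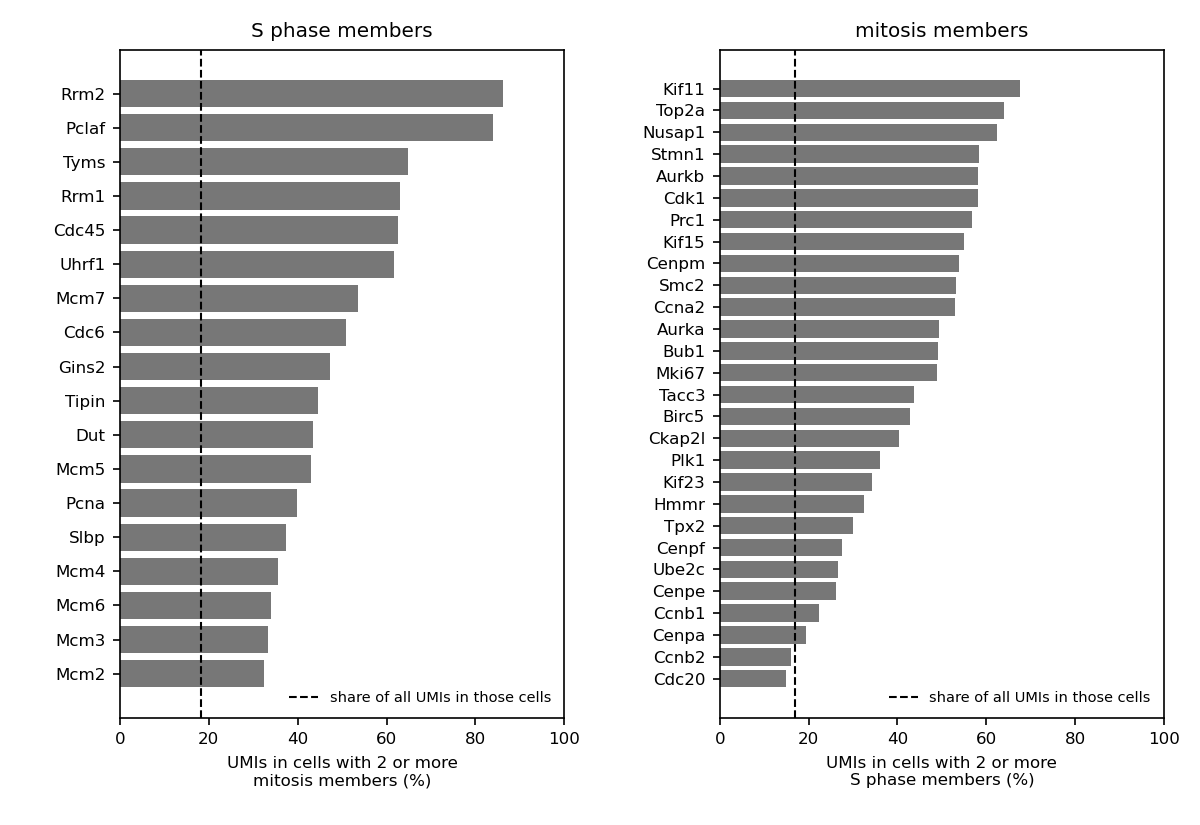
Share of the UMIs of each S phase member that lay in neonatal cDC1 with 2 or more mitosis members (left), and of each mitosis member in those with 2 or more S phase members (right), in percent; the dashed line is the share of all UMIs in those cells. Rrm2 and Pclaf exceed 80%, and Cdc20 and Ccnb2 lie left of the line.

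Other genes of the cycle were also called in cDC1, where 12% of all genes tested were called higher in neonates and 15.3% lower. Of 54 tested replication genes outside the list 21 rose and 0 fell, with a median log2 difference of 0.51. They included Dctpp1, which removes faulty nucleotides (148 and 148 CPM against 85.8 and 115), and the histone chaperone Nasp (50.2 and 53.2 against 29.6 and 31.4). Of 62 tested genes of mitosis and cytokinesis 43 rose and 2 fell, with a median of 1.17. Hmgb2, a chromatin protein, had 929 and 827 CPM against 329 and 378 CPM, and Cks1b and Cks2, partners of cyclin-dependent kinases, rose by 1.17 and 1.21. The 2 that fell were Pttg1, the securin that holds back anaphase (-0.67, SE 0.13), and the condensin subunit Smc4 (-0.28, SE 0.08), while its partner Smc2 rose.

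Among 17 regulators of these waves 4 rose and 1 fell in cDC1, against the same 12% and 15.3%. Foxm1, which drives mitotic genes, rose by 2.47 (11.8 and 7.32 CPM against 0.81 and 2.71), Rbl1 by 1.04, E2f7 by 1.54 and Fbxo5, an inhibitor of the anaphase-promoting complex, by 0.95. Rb1, the retinoblastoma protein that holds E2F in check, fell by 0.75 (27 and 24.5 CPM against 39.3 and 43.3). In cDC2, where 7.33% of all genes tested were called higher and 9.64% lower, 24 of 48 replication genes, 25 of 41 mitosis genes and 2 of 13 regulators rose and 0 of any fell. The regulators were Fbxo5 (3.52) and E2f8 (1.29). Genes low in both adult pools, Fbxo5 among them, entered these tests through the neonatal pools alone.

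Sex-linked transcripts moved with age, and blood transcripts differed between pools. Adult pools were male by Xist and Y-linked UMIs and neonatal pools mostly female, and in neonatal pool 2 cells of both kinds could be compared. There, 21 of 99 cDC1 with Y-linked UMIs had 2 or more S phase members, against 79 of 580 with Xist, and 16 of 99 against 79 of 580 had 2 or more mitosis members. In cDC2 the counts were 8 of 24 against 26 of 201, and 5 of 24 against 25 of 201. The part of sex in the age differences was not tested. Markers of red cells summed to 738 and 107 CPM in neonatal cDC1 and to 21.9 and 1187 CPM in neonatal cDC2, against 3.34 to 5.25 CPM in adult pools of these classes. In neutrophils they summed to 1167 and 54.0 CPM in neonatal and 4.04 and 2205 CPM in adult pools. The part of red cell transcripts in the results was not tested. Of the 46 members 10 overlap another annotated gene on the same strand, and how reads were shared between them was not tested.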

How the data were processed

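UMI counts per gene and cell were deposited by the authors as 1 matrix of whole numbers for all 4 pools, not normalized, made with Cell Ranger 6.1.2 on build mm10, and Seurat 4.2.0 is also listed, per the submitters' processing notes. Of 14710 barcodes, those with at least 500 genes, 1000 UMIs, at most 10% mitochondrial UMIs and at most 20% of hashtag counts from the other tag were kept. Pools were told apart by the barcode suffix, as the series' design text assigns it. Doublets predicted with Scrublet in scanpy (113, 93, 20 and 14 per pool) were left out, which left 12725 cells. Cells were clustered with scanpy 1.11.5 (2432 variable genes without cell cycle genes, 30 components, 15 neighbours, Leiden resolution 1, giving 21 clusters) and named from marker lists.

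UMIs were summed per pool and class, and classes with at least 20 cells in every pool were tested with the robust quasi-likelihood test of edgeR 4.0.16 (TMM, filterByExpr). The filter can be met by the pools of 1 age alone, so the number of members tested depends in part on which members are high at that age. P-values were adjusted by Benjamini-Hochberg over all genes tested, and a call is an adjusted p under 0.05. The pools are the replicates (n = 2 per age). A pool mixes several mice, so p-values measure the spread between pools. Differences of age effects were tested as an age by class term with the pool as a block. Alternatives were DESeq2 1.42.0, its size factors within edgeR, no filter on low counts, thinned cells, kept doublets, stricter cell filters (1000 genes, 2000 UMIs, 5% mitochondrial), 31 finer clusters (resolution 2), a block on pool number and leaving out each pool. The Rag1, finer NK and reduced-list alternatives and the split by sex-linked UMIs were chosen after seeing the data. Intervals are exact binomial (95%) or exact conditional Poisson, and cover counting error only. The fits were tested on simulated data. Gene positions came from GENCODE M21, which matched 32158 of 32285 identifiers.

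The 46 members, the further gene lists and the motifs were chosen with earlier results of these data known. In each class up to 6 called S phase and 6 called mitosis members of smallest p are given with their values, with the most abundant member of each list and any called member that went against its list. Other members are given by counts and range, and a few that stand out within a list (largest, smallest or not called) were chosen after their values were seen.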

Additional observations from a re-analysis of the deposited data

Results flagged for a closer look

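A difference of age effects between classes was found for 11 member and class pairs, each by the interaction test of edgeR at an adjusted p under 0.05. In each comparison the share of members called was close to or below that over all genes, so the counts do not set the members apart. Between cDC1 and cDC2 (cDC1 minus cDC2, log2), 3 of 46 members were called, against 6.39% of all genes tested. Stmn1 had -1.09 (SE 0.17, adjusted p 3.18e-06), Smc2 -1.06 (SE 0.30, adjusted p 0.0186) and Cenpa 0.77 (SE 0.24, adjusted p 0.0424). The age effect was larger in cDC2 for Stmn1 and Smc2 and larger in cDC1 for Cenpa. The age effects behind Stmn1 were 1.03 in cDC1, which was not called alone, and 2.08 in cDC2.

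Between cDC1 and mature DC, 6 of 46 members were called, against 21.1% of all genes tested. The S phase members Pcna (1.30), Tyms (1.58), Mcm7 (2.37) and Tipin (2.43) and the mitosis members Cenpa (1.92) and Kif23 (2.34) had the larger age effect in cDC1. Pcna, Mcm7 and Tipin were called higher in neonatal cDC1 and lower in neonatal mature DC, at 0.41 and -0.98, 0.67 and -1.78, and 0.77 and -1.73. Tyms and Cenpa were called in cDC1 only, and their values in mature DC were -0.95 and -0.57.

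Between classical and nonclassical monocytes, 2 of 22 members were called, against 8.43% of all genes tested. Stmn1 had 4.89 (SE 0.90) and Mcm6 3.36 (SE 0.97). Both fitted values rest on 2 UMIs in the adult classical monocytes of both pools together, so their size depends on the prior count of the fit.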

How the results depend on the processing

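Counts of called members in cDC1 and cDC2 were lowest when each cell was thinned to 1000 UMIs, which also leaves fewer genes to test. Over the tested classes they were then 2 S phase and 10 mitosis members in cDC1, 1 and 4 in cDC2, 0 higher of either list and 1 S phase member lower in mature DC, and 0 of either list in classical monocytes and neutrophils, including 0 lower mitosis members in the latter, and 0 mitosis members in nonclassical monocytes. With DESeq2, S phase counts were 7 in cDC1, 6 in cDC2, 1 (lower) in mature DC, 1 in classical monocytes and 0 in neutrophils. Mitosis counts with DESeq2 were 8 in cDC2, 1 in mature DC and 0 in nonclassical monocytes. With no filter on low counts, counts rose to 2 and 4 in mature DC, 4 S phase members in classical monocytes, 4 and 7 in neutrophils and 2 S phase members in T cells. T cells gave 1 and 3 at the finer clustering, and 10 and 4 with the Rag1 cluster counted as T cells.

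Leaving out 1 pool at a time gave 8 to 15 S phase members in cDC1, 9 to 15 S phase and 13 to 23 mitosis members in cDC2, 1 to 3 lower S phase and 1 to 4 mitosis members in mature DC, and 1 to 3 S phase members in classical monocytes. It gave 0 to 1 mitosis members in nonclassical monocytes, 0 to 1 S phase and 1 to 2 lower mitosis members in neutrophils, and 0 to 5 and 0 to 7 in T cells. Interaction counts ranged over 0 to 2 and 1 to 6 for cDC1 against cDC2, 2 to 7 and 0 to 2 for cDC1 against mature DC, and 0 to 2 S phase members for the monocytes. With the pool number as replicate block, cDC2 had 24 mitosis members called in place of 23. The other counts stayed within 1.5 times. The numbers are labels of the pools and nothing says that they pair the ages.

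Directions of uncalled members turned for 5 member and class pairs. Without 1 pool, Pcna in nonclassical monocytes ranged from -0.0024 to 0.13, Kif23 there from -0.74 to 0.14, Slbp in neutrophils from -0.030 to 0.50, Stmn1 in T cells from -0.45 to 0.99 and Slbp in basophils from -0.14 to 0.10. Thinning gave -0.097 for Pcna in nonclassical monocytes and -0.11 for Slbp in neutrophils. The stricter cell filter gave -0.027 and 0.19 for Pcna and Kif23 in nonclassical monocytes and 0.034 for Slbp in basophils, which had 0.088 unfiltered and 0.025 with doublets kept. Among 663 values of named members under an alternative, 598 kept direction and call, 45 lost the call, 8 gained it and 12 turned.

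The neonatal minus adult share of cells kept its direction in cDC1, cDC2, classical monocytes and neutrophils under every alternative run. In mature DC it turned to 0.191 percentage points for 3 or more S phase members and to -0.297 for mitosis members without thinning. In nonclassical monocytes the S phase difference was -0.141 at 2000 UMIs, -2.23 unthinned, -3.35 for 1 member, -0.0378 for 3, -0.00567 with doublets, -0.000745 at the finer clustering, -0.245 without Pcna and Slbp, and -0.381 to 0.403 without 1 pool. Its mitosis difference was 0.774 at 2000 UMIs, 0.552 unthinned, 0.176 for 1 member, 0 for 3, 0.101 without Kif23 and Cenpa, 0.0684 without Stmn1, and -0.191 to 0.121 without 1 pool. In T cells the S phase difference was -0.651 unthinned and -0.404 to 10.2 without 1 pool. The cause of these turns was not tested. No cluster of cycling cells formed, so leaving such clusters out could not be run, and neutrophils had too few cells in a pool under the stricter filter.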

Other observations

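Some values belong in no comparison. In mature DC, the list of S phase members held genes of both directions while its UMIs summed to 178 and 207 in neonatal and 253 and 193 in adult pools on the CPM scale, which overlap. In B cells, 14 of 22 and 2 of 9 neonatal cells carried 2 or more S phase members, and 0 of 5 and 0 of 16 adult cells did, with upper bounds of 52.2% and 20.6% (exact 95% binomial interval). The mitosis counts were 7 and 1 against 0 and 1. In endothelial cells 3 of 19 and 8 of 30 neonatal cells carried 2 or more mitosis members.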
